A study of Mus musculus with 4 samples.

Results

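In mouse macrophages, 10 noncoding RNAs were followed: 5 hosts of small nucleolar RNAs (snoRNAs; Gas5, Snhg1, Snhg3, Snhg5 and Snhg12), 3 hosts of microRNAs (Mir155hg, Mir22hg and Mir17hg) and the nuclear RNAs Malat1 and Neat1. They are the 10 rows with these symbols among 54532 genes of the deposited raw count table, and they were chosen by name. Bone marrow cells were cultured for 7 days with medium conditioned by L929 fibroblasts, a source of macrophage colony-stimulating factor, and all libraries come from cells that were then transfected. The control group received a negative-control mimic and the other group a miR-204-3p mimic, each for 24 h and each with 2 libraries; no source used here gives the strain, age or sex. A mimic is a synthetic RNA duplex that acts in place of a natural microRNA, and the design asks which transcripts differ between these groups. Whether a group's libraries come from different animals or dishes is not stated, and the p-values therefore cover the spread of these libraries alone, which may be technical.

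SnoRNAs are cut out of the introns of their hosts and guide the methylation and pseudouridylation of ribosomal RNA, while the spliced host RNA is exported and, for many hosts, degraded when ribosomes meet an early stop codon (nonsense-mediated decay). Many snoRNA hosts start, like ribosomal protein genes, with a run of pyrimidines (a terminal oligopyrimidine tract) that ties their translation to growth signals. MicroRNA hosts are cut in the nucleus by Drosha, which releases the hairpins, so the level of a host RNA is not the level of its microRNA. Malat1 lies at nuclear speckles, and Neat1 builds paraspeckles, nuclear bodies that hold proteins such as Sfpq and Nono.

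The microRNAs carried by the 3 hosts are shown because their seeds (bases 2 to 8, in capitals) define which targets they share. All 8 hosted microRNA genes were matched by name in RefSeq (GRCm38.p6), and the arm for which each is best known is printed 5′ to 3′ below, followed by the transfected microRNA.
miR-155-5p, in Mir155hg, chr16:84714143-84714165, plus strand: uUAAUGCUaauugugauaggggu
miR-22-3p, in Mir22hg, chr11:75463772-75463793, plus strand: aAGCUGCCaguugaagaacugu
miR-17-5p, in Mir17hg, chr14:115043684-115043706, plus strand: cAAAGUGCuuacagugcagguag
miR-20a-5p, in Mir17hg, chr14:115044183-115044205, plus strand: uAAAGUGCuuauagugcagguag
miR-18a-5p, in Mir17hg, chr14:115043867-115043889, plus strand: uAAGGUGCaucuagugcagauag
miR-19a-3p, in Mir17hg, chr14:115044048-115044070, plus strand: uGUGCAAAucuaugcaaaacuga
miR-19b-3p, in Mir17hg, chr14:115044358-115044380, plus strand: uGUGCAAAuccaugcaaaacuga
miR-92a-3p, in Mir17hg, chr14:115044476-115044496, plus strand: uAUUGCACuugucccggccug
miR-204-3p, transfected as a mimic, chr19:22750649-22750669, plus strand: gCUGGGAAggcaaagggacgu
Within Mir17hg, miR-17-5p and miR-20a-5p share a seed, as do miR-19a-3p and miR-19b-3p, and miR-18a-5p and miR-92a-3p each have their own. None of the printed hosted seeds equals that of miR-204-3p.

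The start regions of the snoRNA hosts are shown because 4 of the 5 hosts have a start with a similar layout. Each window runs from 40 bases before to 30 bases from the RefSeq start onward (GRCm38.p6), and capitals mark the letters TATA, with any further TA that follows, lying 20 to 40 bases before the start and the longest run of C or T near the start.
Gas5, the downstream of its 2 starts, chr1:161035126-161035195, plus strand: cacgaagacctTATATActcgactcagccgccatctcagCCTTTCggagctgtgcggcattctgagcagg
Snhg1, chr19:8723447-8723516, plus strand: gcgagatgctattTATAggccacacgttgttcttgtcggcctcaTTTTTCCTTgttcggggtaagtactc
Snhg5, chr9:88522868-88522937, minus strand: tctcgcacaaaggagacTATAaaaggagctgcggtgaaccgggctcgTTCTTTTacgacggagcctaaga
Snhg12, chr4:132308638-132308707, plus strand: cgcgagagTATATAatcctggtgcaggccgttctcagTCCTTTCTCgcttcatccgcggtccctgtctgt
The pyrimidine runs were 6 bases long in Gas5, 9 in Snhg1, 7 in Snhg5 and 9 in Snhg12. The Snhg3 window, not printed, holds TATA only downstream of its start. On the strand of the gene, TATA was not found 20 to 40 bases before the upstream Gas5 start or the starts of Snhg3, Mir155hg, Mir22hg, Mir17hg or Malat1. Of 32851 RefSeq starts, 5.8% held TATA there, 24.6% a run of at least 7 pyrimidines and 1.6% both. The last share covers the layout of Snhg1, Snhg5 and Snhg12 only, since the Gas5 run is shorter than 7 bases. The window and the run length were chosen after these sequences had been read, so the match is a description. The entries for Mir155hg and Mir17hg start 9856 and 1511 bases from the gene start in the count table. The Mir17hg entry starts at 115044390, inside the Mir19b-1 hairpin (115044305 to 115044391). These 2 windows therefore do not show the start of the host gene in the table.

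Each library held 15899235 to 16837826 counts, and 13186 genes passed the low-count filter. The groups stood far apart across the transcriptome: log2 CPM (counts per 1e6 counts) correlated across genes at r = 0.987 and 0.989 within groups and at 0.871 to 0.885 between them, and 60.8% of tested genes were called (edgeR quasi-likelihood test, Benjamini-Hochberg adjusted p at or under 0.05), 31.1% higher and 29.7% lower with the miR-204-3p mimic. Control and mimic values did not overlap for 80.7% of tested genes. CPM values below are scaled by trimmed mean of M-values (TMM) factors, of 0.878 and 0.886 (control) and 1.14 and 1.13 (mimic). When libraries were scaled by their size alone, the median log2 change over all tested genes went up by 0.36, from 0.035 to 0.40. The called genes went from 4101 higher and 3921 lower to 6151 higher and 2513 lower, so each direction is relative to TMM. For the RNAs followed here, the value under library size alone is given where the call or the direction depends on it. Most list counts are given under both scalings, and a count printed under TMM alone may differ. A fold change compares the miR-204-3p group with the control group; CPM values carry the SD of 2 libraries after ±, and log2 changes carry their standard error.

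The cells' own markers differed between the groups as well. Of 10 macrophage markers, 8 were lower and 2 higher, and 7 and 2 with library size alone. Their summed level was 19560 to 21440 CPM in control libraries and 5118 to 5477 CPM with the mimic. Among 7 B cell markers, 4 were tested and all 4 were lower (summed 227 to 251 against 3.38 to 3.82 CPM; Ms4a1 had 0 counts), and among 9 neutrophil markers 4 were tested and 3 were lower (174 to 241 against 11.5 to 16.2 CPM; Ly6g had 0). Of 7 dendritic markers, 5 were tested and 3 were lower (138 to 165 against 33.5 to 34.7 CPM; Cd209a had 0). For 7 T and NK cell markers only Lck was tested and it was higher (summed 4.41 to 5.06 against 27.2 to 28.3 CPM), with Cd3e, Trac, Cd8a, Ncr1 and Nkg7 at 0. No fibroblast or mast and erythroid marker passed the filter. The mitochondrial share of counts was 2.13% and 2.12% in control and 1.52% and 1.65% in mimic libraries. These values move with every difference given below, and their part in them was not tested.

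Of the 10 RNAs, 8 passed the filter; 4 were called higher, 2 lower and 2 were not called, which is 6 of 8 beside the 60.8% of all tested genes called; with library size alone 4 were higher and 0 lower. Both tested microRNA hosts and both nuclear RNAs were higher, and none of the 4 tested snoRNA hosts was. In TMM-scaled CPM, the groups did not overlap for the 6 called RNAs of the 8 tested, beside 80.7% of all tested genes. The groups of Gas5 and Snhg12 overlapped. The 10 RNAs together held 0.0507% and 0.041% of counts in control and 0.0884% and 0.0753% in mimic libraries. In such bulk samples, fewer cells of a type and less RNA per cell cannot be told apart.

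**Figure D1:**
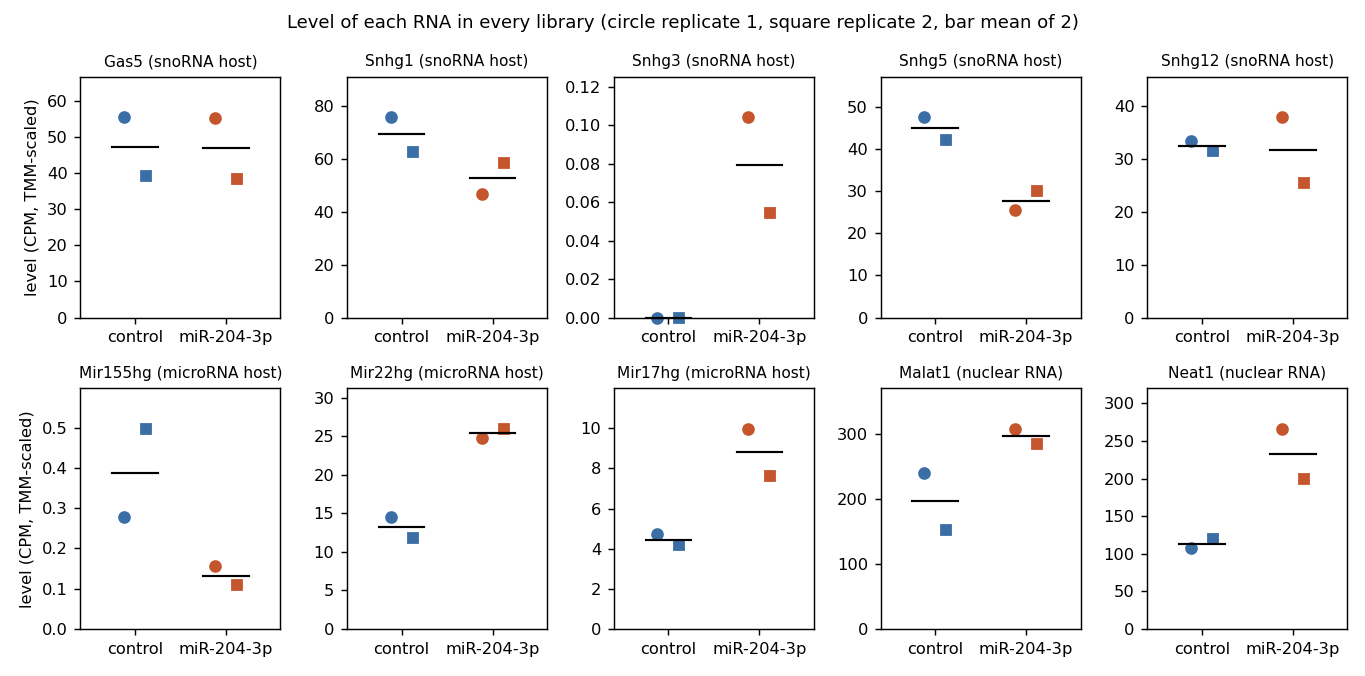
Level of each of the 10 RNAs in every library, in TMM-scaled CPM on linear axes that start at 0 and differ between panels; circles are replicate 1, squares replicate 2 and bars the mean of 2 libraries. Neat1, Malat1, Mir22hg and Mir17hg lie higher in both mimic libraries, Snhg5 and Snhg1 lower, and the Gas5 and Snhg12 groups overlap.

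Among the snoRNA hosts, Snhg5 (ENSMUSG00000097195, mm10 chromosome 9, 88521050 to 88522929, minus strand), the host of Snord50a and Snord50b, had 47.5 and 42.2 CPM in control and 25.4 and 30.1 CPM in mimic libraries. Both mimic libraries were lower than both controls. Snhg5 fell 1.62-fold, a log2 change of -0.69 ± 0.15 (edgeR quasi-likelihood test, adjusted p = 0.00144). Under library size alone its log2 change was -0.33 with an adjusted p of 0.0732, which ended the call.

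Snhg1 (ENSMUSG00000108414, chromosome 19, 8723475 to 8726443, plus strand), which carries Snord22 and 7 further annotated snoRNAs, had 75.7 and 62.6 CPM in control and 46.8 and 58.3 CPM in mimic libraries. With TMM scaling, the higher mimic library came close to the lower control library without overlap. The raw counts, 1091 and 881 in control against 899 and 1069 in mimic libraries, interleaved. The log2 change of Snhg1 was -0.40 ± 0.15 (edgeR quasi-likelihood test, adjusted p = 0.0343), a 1.32-fold fall. The call was lost without control replicate 1 (-0.27, adjusted p = 0.25) and without mimic replicate 1 (-0.25, adjusted p = 0.188). It was also lost with library size alone (-0.033, adjusted p = 0.858), with DESeq2 (-0.41, adjusted p = 0.0535) and with gene-length offsets (-0.35, adjusted p = 0.0519).

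Gas5 (ENSMUSG00000053332, chromosome 1, 161034422 to 161038539, plus strand), named for its rise in growth-arrested cells, had 55.5 and 39.2 CPM in control and 55.2 and 38.5 CPM in mimic libraries. Each group held a high and a low library, and the groups covered nearly the same range. The log2 change was -0.014 ± 0.19, with a 95% interval of -0.43 to 0.40 (edgeR quasi-likelihood test, adjusted p = 0.953), so changes within that interval were not detectable here. Its sign turned with library size alone (0.35) and when control replicate 1 (0.25) or mimic replicate 2 (0.20) was left out, with no call in any of these.

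Snhg12 (ENSMUSG00000086290, chromosome 4, 132308623 to 132311024, plus strand), the host of Snord99 and of several pseudouridylation guides, had 33.4 and 31.4 CPM in control and 37.9 and 25.5 CPM in mimic libraries. The mimic libraries lay on either side of the controls. The log2 change was -0.031 ± 0.18, with a 95% interval of -0.42 to 0.36 (edgeR quasi-likelihood test, adjusted p = 0.895). As for Gas5, its sign depended on the scaling, at 0.33 with library size alone.

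Snhg3 (ENSMUSG00000085241, chromosome 4, 132348014 to 132353686, minus strand), which carries Snora73a and Snora73b, had 0 and 0 counts in control and 2 and 1 in mimic libraries. No fold was computed, since both groups lie at or under the floor of 3 counts, 0.156 to 0.213 CPM per library. Snhg3 and Snhg12 lie on the same chromosome, on opposite strands, and the spliced Snhg3 row shares 71.5% of its exonic bases with the antisense gene Gm17300 (1 and 1 against 8 and 9 counts). It also lies within the span of Rcc1, which encodes the nucleotide exchange factor of the GTPase Ran, on the same strand, with 13.7% of its exonic bases shared. Rcc1 had 64.6 and 68.1 CPM in control and 79.3 and 97.8 CPM in mimic libraries (log2 change 0.42 ± 0.14, adjusted p = 0.016). No source used here gives the strand setting or the treatment of shared bases, so reads of these genes could be mixed.

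The sequences of 3 box C/D snoRNAs are shown as examples of what these hosts carry; the conserved C box (TGATGA) and D box (CTGA) are in capitals, and the sequences were read from GRCm38.
Snord47, in Gas5, chr1:161038082-161038158, plus strand: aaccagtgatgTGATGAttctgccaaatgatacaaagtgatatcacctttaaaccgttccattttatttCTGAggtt
Snord50a, in Snhg5, chr9:88521529-88521600, minus strand: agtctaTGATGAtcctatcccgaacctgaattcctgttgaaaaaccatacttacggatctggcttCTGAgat
Snord99, in Snhg12, chr4:132310691-132310764, plus strand: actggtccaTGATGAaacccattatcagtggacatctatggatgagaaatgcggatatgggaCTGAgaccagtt
The table holds 27 snoRNA rows and 8 microRNA rows inside the hosts and on their strand, and all 35 had 0 counts in all 4 libraries, which allows up to 3 counts per row and library. Of these rows, 25 of the 27 snoRNA rows and all 8 microRNA rows lie wholly inside annotated exons of the host. Reads there would overlap a host and a small RNA at once, and no source used here says how such reads were counted. Of all rows deposited, 182 of 1507 snoRNA rows and 193 of 2207 microRNA rows had any count, so the libraries give no measure of the small RNAs made from these hosts.

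Both tested microRNA hosts were higher with the mimic. Mir22hg (ENSMUSG00000085148, chromosome 11, 75461539 to 75466676, plus strand), the host of miR-22, had 14.6 and 11.8 CPM in control and 24.8 and 26.0 CPM in mimic libraries. The groups were well separated and the mimic libraries lay close together. It rose 1.92-fold, a log2 change of 0.94 ± 0.18 (edgeR quasi-likelihood test, adjusted p = 0.000443). Tlcd2, which lies on the same strand and shares 10.7% of the exonic bases of Mir22hg, had 3.26 and 2.20 CPM in control and 3.75 and 3.93 CPM in mimic libraries and was not called (0.49 ± 0.32, adjusted p = 0.208).

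Mir17hg (ENSMUSG00000089726, chromosome 14, 115042879 to 115046727, plus strand), the host of the growth-promoting miR-17-92 cluster, had 4.72 and 4.19 CPM in control and 9.99 and 7.64 CPM in mimic libraries. Both mimic libraries were above both controls, with the wider spread among the mimic libraries. Mir17hg rose 1.98-fold, a log2 change of 0.98 ± 0.26 (edgeR quasi-likelihood test, adjusted p = 0.0042). Against a minimum of 1.5-fold its adjusted p was 0.0614, which ended the call.

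Mir155hg (ENSMUSG00000097418, chromosome 16, 84703167 to 84715245, plus strand), the host of miR-155 and known to be induced by inflammatory stimuli in macrophages, did not pass the filter. Its counts were 4 and 7 in control and 3 and 2 in mimic libraries, which is 11 against 5 in all. The ratio of mimic to control, scaled for library size and TMM, was 0.345 with a counting interval of 0.094 to 1.08, so a difference was not detectable at this depth.

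Both nuclear RNAs were higher with the mimic. Neat1 (ENSMUSG00000092274, chromosome 19, 5824708 to 5845478, minus strand) had 107 and 119.5 CPM in control and 266.5 and 199.6 CPM in mimic libraries. The lower mimic library stood well above the higher control. Neat1 rose 2.06-fold, a log2 change of 1.04 ± 0.15 (edgeR quasi-likelihood test, adjusted p = 3.25e-05). With gene-length offsets, which correct for a trend with gene length, its log2 change was 0.61 (adjusted p = 0.00152). The short and the long Neat1 isoform share a single row, so which of them changed was not measured.

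Malat1 (ENSMUSG00000092341, chromosome 19, 5795690 to 5802672, minus strand) had 239.8 and 152.0 CPM in control and 307.8 and 283.8 CPM in mimic libraries. The controls were spread widely, and both mimic libraries were above them. Its log2 change was 0.59 ± 0.17, a 1.51-fold rise (edgeR quasi-likelihood test, adjusted p = 0.00858). Without control replicate 2 the log2 change was 0.29 with an adjusted p of 0.178, which ended the call. Malat1 and Neat1 together held 0.0304% and 0.024% of counts in control and 0.0656% and 0.0544% in mimic libraries.

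**Figure D2:**
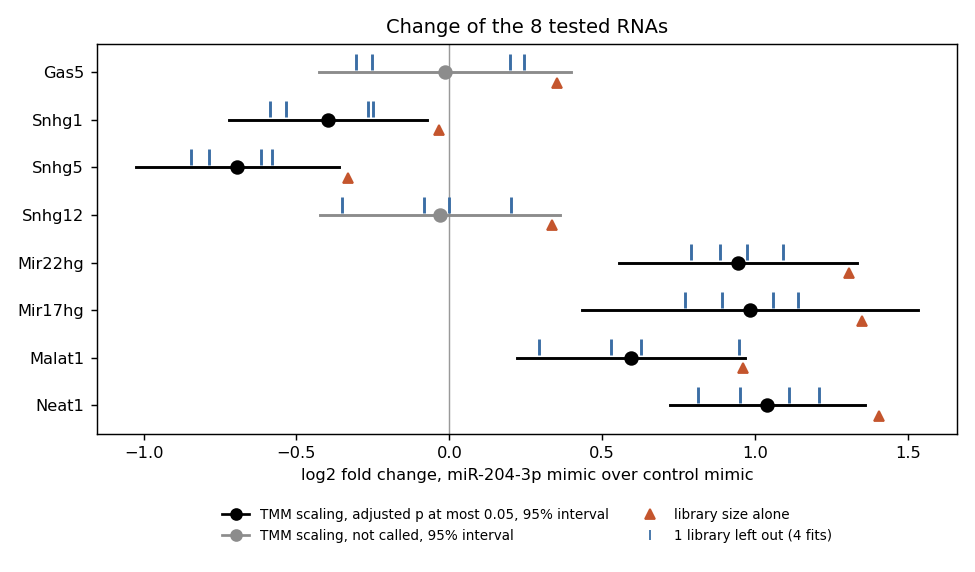
Log2 fold change of the 8 tested RNAs (mimic over control); circles are the edgeR estimates with TMM scaling and lines their 95% intervals (black where the adjusted p is at or under 0.05), triangles the estimates with library size alone and ticks the fits with 1 library left out. Mir22hg, Mir17hg, Malat1 and Neat1 lie above 0 in every fit shown, Snhg5 and Snhg1 below 0, and the estimates for Gas5 and Snhg12 fall on both sides.

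Levels were compared between genes only after division by gene length (CPM per kb of the length in the table, which counts all annotated exons). That length equals the whole gene span for Snhg1 (2969 bases) and Snhg12 (2402 bases), and is 3760 of 4118 bases for Gas5. Bases that are introns in spliced transcripts thus count in the divisor and can lower the value of a host. The order below is one of this measure and not of RNA level. In control libraries Malat1 was highest at 28.1 ± 8.9 CPM per kb, followed by Snhg5 at 25.9 ± 2.2 and Snhg1 at 23.3 ± 3.1, and the libraries of these 3 overlapped. Snhg12 at 13.5 ± 0.57 and Gas5 at 12.6 ± 3.1 CPM per kb came next and overlapped each other, and below them followed Mir22hg at 6.85 ± 1.0, Neat1 at 5.46 ± 0.42 and Mir17hg at 1.26 ± 0.10, with no overlap between these neighbours. With the mimic, Malat1 stood alone at 42.4 ± 2.4 CPM per kb, above Snhg1 at 17.7 ± 2.8 and Snhg5 at 16.03 ± 1.91, which overlapped each other and Snhg12. Mir22hg at 13.2 ± 0.44, Snhg12 at 13.2 ± 3.6, Gas5 at 12.5 ± 3.1 and Neat1 at 11.2 ± 2.3 CPM per kb could not be put in order, since each overlapped the next. Mir17hg remained lower at 2.49 ± 0.47 CPM per kb. Mir155hg was at 0.27 ± 0.11 and 0.093 ± 0.023 CPM per kb in the control and mimic groups, and Snhg3 at 0 and 0.080 ± 0.036.

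**Figure D3:**
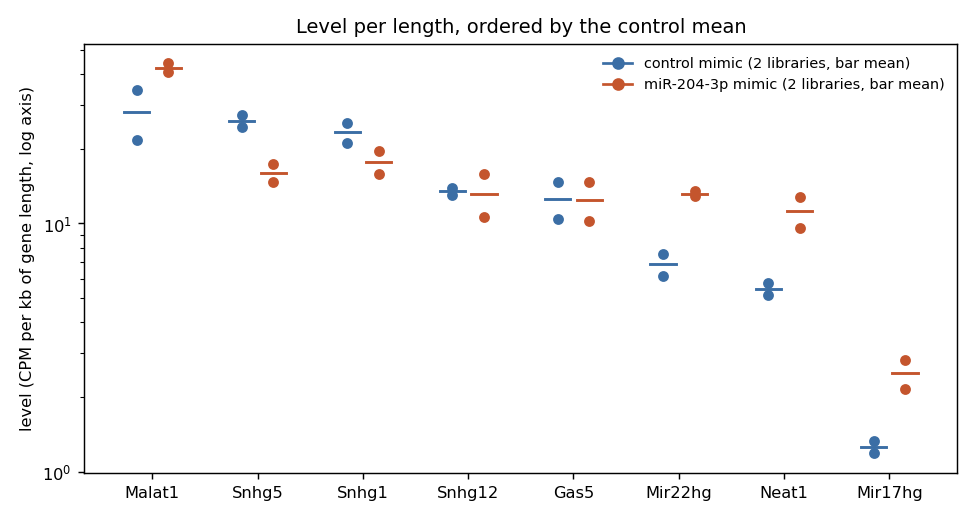
Level per length of the 8 tested RNAs in CPM per kb of gene length on a log axis, ordered by the control mean; points are libraries and bars the mean of 2. Malat1, Snhg5 and Snhg1 overlap at the top in control libraries, while with the mimic Malat1 stands alone at 42.4 CPM per kb and Mir22hg and Neat1 lie beside Snhg12 and Gas5.

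Other noncoding snoRNA hosts were counted in the same fit. Of 16 further genes listed by name, 10 were tested, 7 were lower and none was higher, with a median log2 change of -0.49 beside 0.035 over all tested genes; with library size alone 4 were lower and 1 higher and the median was -0.12. Epb41l4aos fell from 53.8 ± 8.0 to 16.1 ± 5.6 CPM (log2 change -1.74 ± 0.21, edgeR adjusted p = 6.25e-06), and Snhg8 from 34.02 ± 2.78 to 11.9 ± 1.9 CPM (-1.51 ± 0.18, adjusted p = 5.3e-06). Snhg20, in which the table places a microRNA row and no snoRNA row, fell from 43.6 ± 2.6 to 16.7 ± 0.22 CPM (-1.39 ± 0.15, adjusted p = 3.01e-06). When hosts were taken from the coordinates and the deposited biotype, 19 noncoding genes with a snoRNA row inside were tested. Of them 9 were lower (47.4%) and 4 higher (21.1%), beside 29.7% and 31.1% of all tested genes. With library size alone 4 were lower and 6 higher. The class includes Cct6a (not called), which is better known as a protein-coding gene.

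Protein-coding snoRNA hosts split by kind, where 31.1% of all tested genes were higher and 29.7% lower. All 30 ribosomal protein genes with a snoRNA row were tested, 28 were lower and none higher, with a median log2 change of -1.18, and 25 were lower with library size alone. Rpl37 fell from 1295 ± 52 to 260 ± 19 CPM (log2 change -2.32 ± 0.13, edgeR adjusted p = 2.6e-09). Of 51 tested ribosomal protein genes without a snoRNA row, 47 were lower and 1 was higher, and 43 and 2 with library size alone. The other 166 tested protein-coding hosts included 64 higher and 57 lower genes, with a median of 0.078, and 85 higher and 31 lower genes with library size alone, with a median of 0.44. The lower genes with the smallest p included Eef2, the elongation factor that moves the ribosome along the mRNA (16640 ± 433 to 4557 ± 15 CPM, -1.87 ± 0.12, adjusted p = 8.33e-09), Hspa8, a constitutive chaperone (4093 ± 353 to 750.4 ± 20.9 CPM, -2.45 ± 0.13, adjusted p = 1.29e-09), and Tbxas1, the thromboxane synthase (59.2 ± 1.9 to 2.10 ± 0.033 CPM, -4.81 ± 0.19, adjusted p = 1.11e-10). Higher hosts included Gtf2a1, a subunit of the general factor TFIIA (20.7 ± 2.0 to 82.1 ± 9.1 CPM, 1.99 ± 0.15, adjusted p = 7.15e-08).

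**Figure D4:**
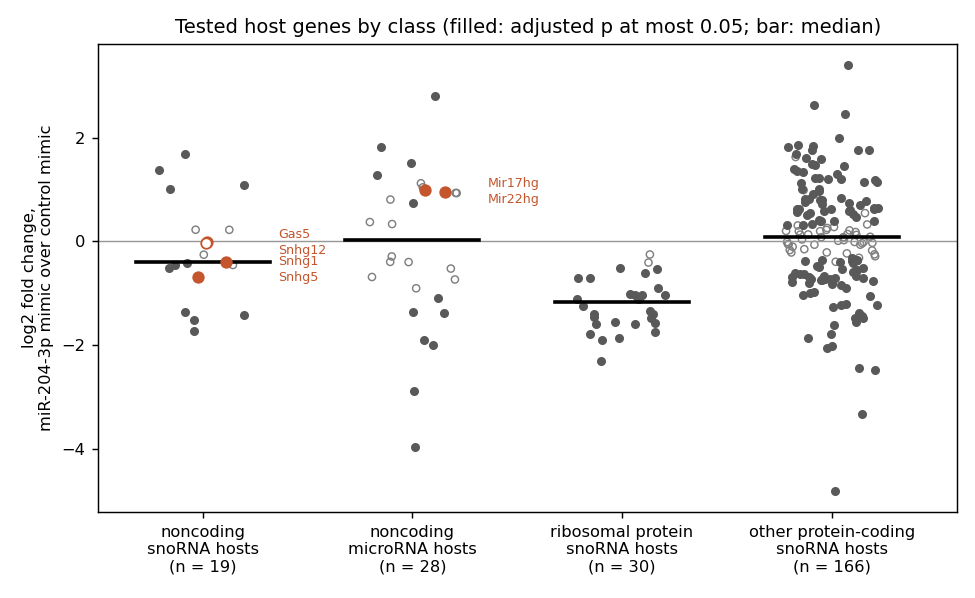
Log2 fold change of tested host genes (mimic over control) in 4 classes made from the coordinates and biotypes in the count table. Each point is a gene, filled where the edgeR adjusted p is at or under 0.05, bars are medians and orange points are the RNAs described here. The ribosomal protein hosts lie below 0 (28 of 30 called lower), the noncoding snoRNA hosts have 9 lower and 4 higher genes (4 lower and 6 higher with library size alone), and the other 2 classes have called genes on both sides of 0.

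Of 12 further noncoding microRNA hosts listed by name, 4 were tested and 2 were higher (3 with library size alone). Dleu2, the host of miR-15a and miR-16, rose from 7.01 ± 1.7 to 24.9 ± 0.93 CPM (log2 change 1.83 ± 0.21, edgeR adjusted p = 3.78e-06), and Ftx, a noncoding gene of the X-inactivation region, rose from 2.39 ± 0.26 to 5.83 ± 0.067 CPM (1.29 ± 0.29, adjusted p = 0.00162). By coordinates and deposited biotype, 28 noncoding microRNA hosts were tested, 7 higher and 7 lower (25% each), beside 31.1% and 29.7% of all tested genes. With library size alone 11 were higher and 7 lower. This class includes Zswim6 (called higher), which is better known as a protein-coding gene. Among 6 tested long noncoding RNAs of other kinds, 3 were higher, including Tug1, which rose from 40.7 ± 1.1 to 83.6 ± 4.2 CPM (1.04 ± 0.13, adjusted p = 1.04e-05), and Airn was lower. Over all 765 tested noncoding genes, 271 were higher and 124 lower, with a median of 0.51, and 352 were higher and 80 lower with library size alone.

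Genes that act on these RNAs changed in both directions, as did all tested genes, of which 31.1% were higher and 29.7% lower. Of 8 microRNA processing genes 6 were higher and 1 lower, and 7 and 1 with library size alone. Dgcr8, the partner of Drosha, rose from 12.9 ± 1.1 to 33.2 ± 3.3 CPM (log2 change 1.37 ± 0.17, edgeR adjusted p = 1.04e-05). Prkra, a partner of Dicer, fell from 76.2 ± 0.26 to 30.0 ± 3.4 CPM (-1.34 ± 0.14, edgeR adjusted p = 1.71e-06). Of 18 paraspeckle protein genes 7 were higher and 4 lower, and 11 and 3 with library size alone; Sfpq rose from 79.3 ± 7.6 to 207 ± 13 CPM (1.39 ± 0.13, adjusted p = 5.73e-07) while Nono fell from 408.7 ± 18.2 to 219 ± 11 CPM (-0.90 ± 0.12, adjusted p = 2.23e-05). Of 17 nonsense-mediated decay genes 8 were higher and 2 lower, and 11 and 2 with library size alone. Smg5 rose from 56.4 ± 10.9 to 178 ± 12 CPM (1.66 ± 0.15, edgeR adjusted p = 3.14e-07). Of 18 genes for snoRNA-binding proteins and their assembly factors 3 were higher and 5 lower, with a median of -0.17, and 6 higher and 3 lower with a median of 0.19 with library size alone; Nhp2, a core protein of pseudouridylation guides, fell from 272.7 ± 30.1 to 75.5 ± 22.2 CPM (-1.85 ± 0.18, adjusted p = 5.91e-07). Of 11 listed genes for RNase P, which cuts the end of Malat1, and for RNase Z, 5 were higher (6 with library size alone) and none lower. The 5 higher genes encode RNase P subunits, such as Rpp30, from 13.6 ± 1.8 to 29.0 ± 6.6 CPM (1.09 ± 0.20, adjusted p = 0.000263). The listed RNase Z gene was not called.

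Of 16 transcription factors described at host promoters, 8 were higher and 2 lower, and 11 and 1 with library size alone. Myc, described as an activator of Mir17hg, rose from 1.66 ± 0.57 to 29.9 ± 4.8 CPM (log2 change 4.17 ± 0.26, edgeR adjusted p = 1.05e-08), and its relative Mycn fell from 1863 ± 73 to 617 ± 46 CPM (-1.59 ± 0.12, adjusted p = 8.72e-08). The NF-κB subunit gene Nfkb1 rose from 114 ± 15 to 266.5 ± 23.1 CPM (1.22 ± 0.14, adjusted p = 3.04e-06). Described targets of the hosted microRNAs went both ways, as did all tested genes (31.1% higher and 29.7% lower). For miR-17-92, 3 of 11 tested targets were higher and 3 lower, and 7 and 1 with library size alone. Among them were Tgfbr2, the type II receptor of TGF-β (286 ± 17 to 49.4 ± 6.4 CPM, -2.54 ± 0.14, adjusted p = 2.5e-09), and Sirpa, an inhibitory receptor of macrophages (366 ± 87 to 804.8 ± 87.8 CPM, 1.14 ± 0.16, adjusted p = 2.43e-05). For miR-22, 3 of 7 were higher and 2 lower, and 5 and 1 with library size alone. For miR-155, 4 of 13 were higher and 6 lower, and 4 and 4 with library size alone. The miR-155 median of -0.16 turned to 0.21 under that scaling. Inpp5d, which encodes the phosphatase SHIP and is a described miR-155 target, fell from 273 ± 11 to 95.5 ± 5.0 CPM (-1.52 ± 0.13, adjusted p = 1.61e-07). Tab2, another described miR-155 target, rose from 94.3 ± 2.2 to 175.7 ± 14.3 CPM (0.90 ± 0.13, adjusted p = 2.8e-05).

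The letters TTCCCAG, which pair with the seed of miR-204-3p, were sought on the sense strand of the longest annotated transcript of each RNA. Malat1 and Snhg12 held 1 match each and Neat1 held 5, and the other 7 RNAs held 0; no match was followed by an A. Among annotated transcripts within 10% of the same length, 62.5% held the letters for Malat1, 20.8% for Snhg12 and 85.0% (17 of 20) for Neat1. The matches, in capitals with 10 bases on each side, are shown for these 3 RNAs, for Neat1 as 1 example of its 5.
Snhg12, chr4:132308747-132308773, plus strand: gccccccatcTTCCCAGcccaccagct
Malat1, chr19:5800161-5800187, minus strand: tggaagagttTTCCCAGttgccgctga
Neat1, chr19:5841059-5841085, minus strand: aaggaatataTTCCCAGctatgttaga
Of the 3 RNAs with a match, Neat1 and Malat1 were called higher and Snhg12 was not called, while Snhg5 and Snhg1, which were lower, held none.

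For each tested RNA, the gene with the most similar pattern was sought among 8998 tested genes, as the smallest Euclidean distance between centred log2 CPM values over the 4 libraries. The nearest to Neat1 was Zfp608 (distance 0.0415), with 9.29 and 10.7 against 23.1 and 17.3 CPM, and the nearest to Malat1 was Runx2 (0.0806). Psmg4 lay nearest to Snhg5 (0.0187), Fam216a to Snhg1 (0.0371), Rnps1 to Snhg12 (0.0363) and Insl6 to Gas5 (0.102). Tmem81 lay nearest to Mir22hg (0.0264) and Slc30a4 to Mir17hg (0.074). The measure is a description over 4 libraries.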

How the data were processed

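The authors deposited raw counts per gene as whole numbers, with symbol, biotype, coordinates and gene length, per the file headers. HISAT2 and mm10 are named in the submitters' processing notes, and the NEBNext Ultra kit was used on total RNA, per the labels' protocols; no source used here gives the HISAT2 version, counting program, strand setting or RNA selection. Gene coordinates of 98.3% of the 54495 identifiers shared with GENCODE vM21 (GRCm38) were the same. All 4 libraries were tested by group in R 4.3.3 with edgeR 4.0.16 (TMM, filterByExpr, glmQLFit, glmQLFTest, two-sided, Benjamini-Hochberg over 13186 genes at 0.05), and the fit was first tested on simulated data. Standard errors came from the F statistic. DESeq2 1.42.0, other scalings, no filter, gene-length offsets, a replicate block, a minimum of 1.5-fold and leaving out each library were tried. Permutation of 2 against 2 libraries cannot give a p under 0.333. Floors and count ratios cover counting error only. Sequence matching used Python 3.11.15. The 10 RNAs and all lists were chosen with earlier results of these data known. Named genes are the 10 RNAs, for each list the called genes of lowest p, at most 3 each way (some are left out for length or are not reported here), the nearest gene by pattern, and genes whose span overlaps a host.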

Additional observations from a re-analysis of the deposited data

How the results depend on the processing

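Neat1 and Mir22hg kept their direction and their call in every alternative run, and Mir17hg in all but the 1.5-fold minimum (adjusted p = 0.0614). With library size alone, no RNA was called lower (0), 2513 genes and 56 protein-coding snoRNA hosts were lower, and the log2 changes of Gas5, Snhg1, Snhg5 and Snhg12 were 0.35, -0.033, -0.33 and 0.33. Upper-quartile factors gave 0.0075 for Gas5. DESeq2 gave -0.41 for Snhg1 and 1 RNA called lower, and gene-length offsets gave -0.35 for Snhg1, 0.078 for Snhg12 and 1 RNA called lower. Against a 1.5-fold minimum, 2 RNAs (Neat1 and Mir22hg) were higher and 0 lower, and 2213 genes were higher and 2257 lower. Leaving out 1 library gave 1 to 2 RNAs lower and log2 changes of -0.304 to 0.246 for Gas5, -0.588 to -0.25 for Snhg1, -0.35 to 0.202 for Snhg12 (3.54e-05 without control replicate 1) and 0.293 to 0.947 for Malat1; where a group kept 1 library, it was assumed to vary like the other group.

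The labels do not say whether equal replicate numbers share an animal or culture, so the main fit did not pair them. Across genes, the replicate differences of the groups correlated at 0.024, which cannot decide this with only 2 pairs. With a replicate block 4 RNAs were higher and 2 lower, and 4111 genes were higher and 3959 lower.

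With 2 libraries a group, changes of Gas5 and Snhg12 inside their intervals, and a fall of Mir155hg inside its counting interval, could not be shown by these counts, and Snhg3 gave no fold. In all, 132 recomputed values kept their direction and side of the threshold, or for counts stayed within 1.5 times, 11 counts moved, 8 values turned sign and 7 lost their call.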

Other observations

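Protein-coding genes can also carry microRNAs. Of 594 tested protein-coding genes with a microRNA row inside and on their strand, 228 (38.4%) were higher and 157 (26.4%) lower with the miR-204-3p mimic. Calls are from edgeR at an adjusted p at or under 0.05, and the shares over all tested genes were 31.1% and 29.7%. The median log2 change was 0.17 beside 0.035 over all tested genes. With library size alone 332 were higher and 103 lower. Ampd3, which encodes an AMP deaminase, rose from 17.5 ± 2.7 to 137 ± 21 CPM (log2 change 2.97 ± 0.16, adjusted p = 1.97e-09), and Atp6v0a1, a subunit of the proton pump of lysosomes, from 28.5 ± 6.6 to 219 ± 24 CPM (2.94 ± 0.17, adjusted p = 3.26e-09). Slpi, a secreted protease inhibitor, fell from 212.5 ± 9.6 to 18.3 ± 1.3 CPM (-3.54 ± 0.14, adjusted p = 1.05e-10). Whether the microRNAs inside these genes changed was not measured.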
